A study of Mus musculus with 8 samples.

Results

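Protocadherins are the largest group of the cadherin superfamily, and the deposited count table held 69 of them among its 54532 rows. Members were taken as the rows listed as protein coding whose gene name starts with Pcdh. Of the 69, 57 belong to the clustered subfamilies (14 Pcdha, 22 Pcdhb and 21 Pcdhg) and 12 are other protocadherins outside the clusters. Membership was set by gene name and the protein-coding listing, without a measured value. The family itself was chosen with earlier results of these data known. RNA was sequenced from the cortex of 8-mo-old C57BL/6 mice, 4 PS19 mice and 4 Adrb1-A187V;PS19 mice, with 1 library per mouse. PS19 mice express human 1N4R tau with the P301S mutation from the Prnp promoter. Adrb1-A187V;PS19 mice (genotype Adrb1+/m;PS19) carry that transgene too, with Adrb1-A187V on 1 allele, a change in the β1-adrenergic receptor linked to familial natural short sleep. Both groups therefore carried the transgene, and no mice without it were measured, so every comparison is of the receptor mutation on a tauopathy background.

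Protocadherins are calcium-dependent adhesion proteins of the plasma membrane and are known for their high expression in the brain. In the Pcdha and Pcdhg clusters, each gene joins its own large variable exon, read from its own promoter, to a set of constant exons shared by the whole cluster, while each Pcdhb gene is a single large exon. Single neurons choose a few of the alternative promoters at random, with CTCF and cohesin looping the chosen promoter to an enhancer, and the proteins bind homophilically so that branches of the same neuron recognize and avoid each other. The C-type genes at the end of the Pcdha and Pcdhg clusters are instead expressed by many neurons without that choice. The other protocadherins, among them the delta protocadherins Pcdh1, Pcdh7, Pcdh9, Pcdh10, Pcdh11x, Pcdh17 and Pcdh19, are expressed in region- and cell-type-specific patterns and guide axon growth and synapse formation. In a bulk sample the random choices of very many neurons are averaged, and fewer cells of a type cannot be told apart from less RNA per cell.

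The libraries held between 14653222 and 21223754 counts per mouse, and the TMM factors that correct for RNA composition lay between 0.990 and 1.01. Replicates were distinct libraries, as the chi-square per degree of freedom over genes was between 4.50 and 9.20 for any pair within a genotype. Levels are given as CPM, the counts scaled to the TMM-corrected library size, and as CPM per kb of exon length where genes are compared with each other. Marker genes were called at an unadjusted p under 0.05 in edgeR, as were 2.8% of all genes tested, and none passed after adjustment. Markers of cortical excitatory neurons summed to 5201 to 5797 CPM in PS19 mice and to 4958 to 5551 CPM in the Adrb1-A187V;PS19 group. Of these 11 markers, 3 were called with lower and 1 with higher values in the latter. Markers of interneurons, 2 of 11 of them higher and 1 lower, summed to 1313 to 1379 and 1319 to 1444 CPM. Markers of neurons outside the cortex were also present and differed between mice. The 9 basal forebrain cholinergic markers summed to 36.1 to 59.6 CPM in PS19 and 57.6 to 88.8 CPM in Adrb1-A187V;PS19 mice, and 8 of the 9 had an unadjusted p under 0.05 with higher values in the latter. The 10 striatal markers, 1 of them called higher, summed to 987.7 to 1962 CPM and 1033 to 2201 CPM, and the 8 choroid plexus markers to 29.1 to 379.2 CPM and 30.9 to 601.0 CPM, without a call. All 9 cholinergic, all 10 striatal and 7 of the 8 choroid plexus markers had a log2 fold change above 0. No marker of oligodendrocytes and their precursors, astrocytes, microglia, endothelial cells, pericytes and fibroblasts, thalamic neurons or hippocampal neurons had an unadjusted p under 0.05. The part of these markers in the results below was not tested.

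The clustered genes share much of their exon sequence with each other or with overlapping genes. All 57 clustered genes lie on chromosome 18 of GRCm38, Pcdha from 36930184 to 37187661, Pcdhb from 37264938 to 37524479 and Pcdhg from 37661793 to 37841873. All 14 Pcdha rows ended within 5 bases of each other, as did all 21 Pcdhg rows, at the shared constant exons. In each of the 22 Pcdhb rows the exons covered the whole span of the gene, without an intron. The exonic bases that lie in no other annotated gene of GENCODE M21 on either strand, here called unshared bases, made up at most 51.4% of the exon length of any Pcdha row and a median of 54.8% in Pcdhg. In Pcdhb the median was 100%. In all, 30 of the 57 clustered genes had under 60% unshared bases, and none of the 12 other protocadherins did. Over the tested protein-coding genes the share under 60% was 2.25%.

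Very low counts were found at rows with few unshared bases. Pcdhga10 had 0 unshared bases of 4732, because the constant exons are shared with the cluster and 2613 further bases are overlapped by Gm26672 on the opposite strand. It was counted 0 to 2 times per mouse, while each of the other 11 Pcdhga rows had a mean of more than 100 counts. Pcdha4 had 404 unshared bases and 1 to 8 counts per mouse. The table held 2 rows named Pcdha11 and none named Pcdha10. One of them (ENSMUSG00000102206) had 1268 unshared bases and 0 to 6 counts, and the other (ENSMUSG00000007440) had 2499 unshared bases and a mean of 69.3 counts. Whether the overlaps lowered the counts at Pcdhga10, Pcdha4 and the Pcdha11 row ENSMUSG00000102206 was not tested. Pcdhb1 (1 to 9 counts) and Pcdh12 (1 to 14 counts), in contrast, had 100% unshared bases and were low without any such overlap. Pcdh12, a protocadherin of endothelial cells, lies on chromosome 18 outside the clusters. These 5 rows did not pass edgeR's filter on low counts, which left 64 of the 69 members for the tests, 12 of 14 Pcdha, 21 of 22 Pcdhb, 20 of 21 Pcdhg and 11 of 12 others.

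**Figure D1:**
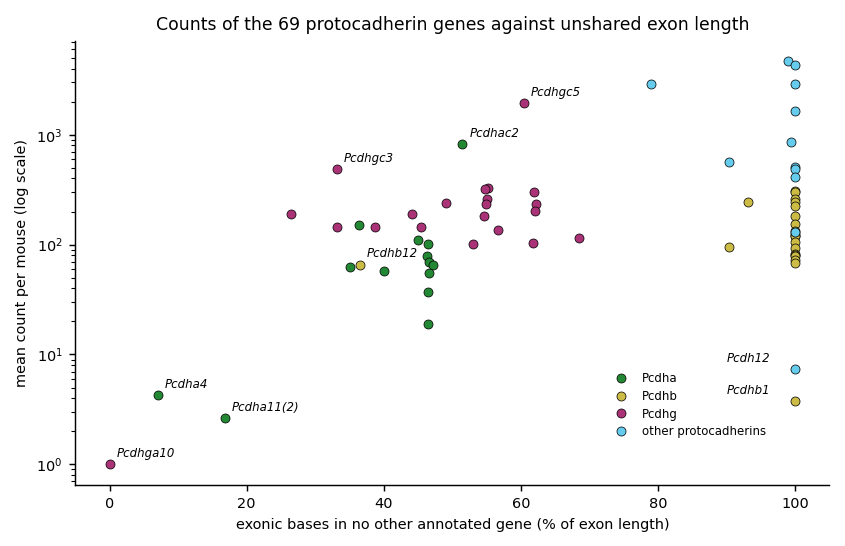
Mean count per mouse (log scale) of each of the 69 protocadherin genes against the percentage of its exonic bases that lie in no other annotated gene, colored by subfamily. Pcdhga10, Pcdha4 and the Pcdha11 row ENSMUSG00000102206, drawn as Pcdha11(2), sit at the lower left with under 20% unshared bases and means of 1 to 4.25 counts, while Pcdhb1 and Pcdh12 are low at 100%.

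The plot of counts against unshared bases shows these low rows at its left edge. Rows with 26.4% or more spanned a wide range of counts. Pcdha8 had 46.4% unshared bases and a mean of 19.1 counts, and the C-type gene Pcdhgc3 had 33.1% and 483.6 counts. By subfamily, the median mean count of the genes tested was 67.0 in Pcdha and 197 in Pcdhg, where few bases are unshared, and 121 in Pcdhb and 852 in the others, where most are. The exon length of each Pcdha and Pcdhg row includes the constant exons, and how reads there were counted is not given in the sources used here. Levels per kb of unshared bases are therefore given beside those per kb of exon length for the leading genes of Pcdha and Pcdhg.

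Among the clustered genes, the C-type members Pcdhac2 and Pcdhgc5 had the highest levels of their clusters, and Pcdhgc3 came next in Pcdhg. Pcdhgc5, which binds GABA-A receptors at synapses, had 14.5 ± 1.17 CPM per kb (SD, n = 8 mice) and 24.0 per kb of unshared bases. Its CPM was 97.9, 120.7, 105.6 and 115.7 in PS19 mice m677, m668, m665 and m659, and 107.7, 117.2, 99.3 and 118.6 in Adrb1-A187V;PS19 mice m671, m661, m660 and m658. The 2 genotypes spread over the same range. Pcdhac2, needed for the even spacing of serotonergic axons, had 7.89 CPM per kb and 15.3 per kb of unshared bases. Its CPM was 41.8, 46.4, 50.2 and 48.6 in the PS19 mice and 47.2, 48.7, 43.9 and 44.8 in the Adrb1-A187V;PS19 mice, in that same order, and again the genotypes overlapped. Pcdhgc3, which acts on Wnt signaling through Axin1, had 4.98 CPM per kb and 15.0 per kb of unshared bases. The latter value rests on 1821 unshared bases, against 3380 where overlaps on its own strand alone are left out. The remaining C-type genes lay among the alternative genes of their clusters, with 2.34 CPM per kb for Pcdhgc4, which supports neuronal survival, and 0.672 for Pcdhac1. By itself Pcdhac2 held 50.4% ± 1.71 (SD, n = 8) of the summed CPM of all Pcdha rows, with a range of 47.0% to 52.1% between mice. Pcdhgc5 held 32.5% ± 2.01 of the Pcdhg sum, with a range of 29.5% to 35.3%.

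The alternative members, from which single neurons choose, lay below Pcdhac2 in Pcdha and below Pcdhgc5 and Pcdhgc3 in Pcdhg. In Pcdha the highest of them were Pcdha12, with 1.60 ± 0.290 CPM per kb, and Pcdha5, with 1.20 ± 0.159. Per kb of unshared bases they had 4.39 and 2.66. In Pcdhg the highest of them were Pcdhga6 with 3.94, Pcdhgb6 with 3.86, Pcdhga3 with 3.08 and Pcdhga2 with 2.85 CPM per kb, whose SDs over mice (0.485, 0.356, 0.479 and 0.328) were larger than the gaps between neighbours except that between Pcdhgb6 and Pcdhga3. Pcdhgb7 had 1.72, Pcdhgb2 1.60 and Pcdhgb5, the lowest Pcdhgb gene, 0.961. The order changed per kb of unshared bases. There Pcdhga11 led the alternative Pcdhg genes with 8.60 CPM, against 2.27 per kb of exon length. Pcdhga6 with 7.13 and Pcdhgb6 with 7.04 per kb of unshared bases followed. The value of Pcdhga11 rests on 1256 unshared bases, since 1381 bases overlapped by Gm26672 on the opposite strand were left out. On its own strand 2637 bases were unshared. Its rank therefore depends on the strand setting of the counts, which is not given. In Pcdhb, whose genes share few bases, Pcdhb9 led with 5.63 ± 0.505 CPM per kb, followed by Pcdhb17 with 3.67 ± 0.294 and Pcdhb20 with 3.59 ± 0.275. The last 2 differed by less than their spread. No Pcdhb gene dominated its subfamily, and Pcdhb9 and Pcdhb17, the largest shares, held 9.65% and 9.63% of the Pcdhb sum.

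Of the other protocadherins, Pcdh1, Pcdh9, Pcdh10 and Pcdh7 were the most abundant genes of the whole family per kb of exon length. They had 27.6 ± 2.97, 24.1 ± 1.66, 16.7 ± 0.982 and 15.4 ± 0.605 CPM per kb (SD, n = 8). Pcdh10, which recruits the WAVE actin regulator, held 24.2% of the summed CPM of these 12 genes, Pcdh1 22.2% and Pcdh9 15.0%. Pcdh17 and Pcdh8, an activity-induced protocadherin, followed with 7.13 and 7.15 CPM per kb and differed by less than their spread. When the clustered genes were counted per kb of unshared bases, Pcdhgc5 moved close to Pcdh9 (24.0 against 24.1), so the order at the top depends on which length is used. The order of the members was stable between animals. The median rank correlation of CPM per kb of exon length between 2 mice is a description over the genes of a subfamily. It was 0.92 within and 0.93 between genotypes for Pcdha (14 genes) and 0.91 and 0.93 for Pcdhg (21). For Pcdhb (22) it was 0.83 and 0.84, and for the others (12) 0.99 and 0.98.

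**Figure D2:**
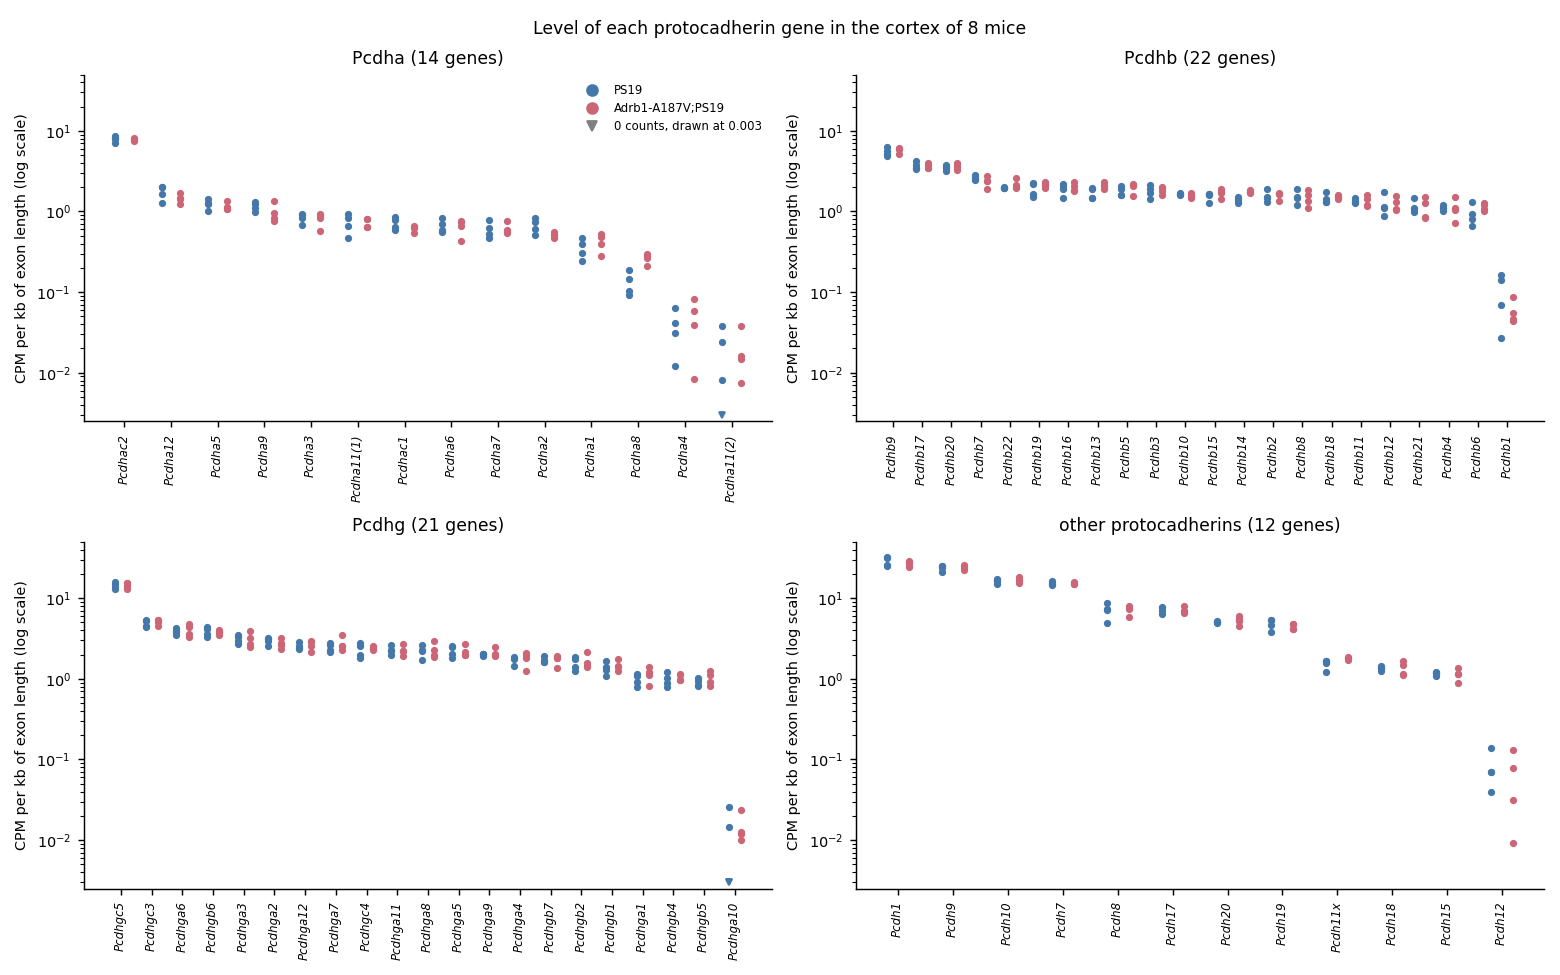
CPM per kb of exon length (log scale) of every protocadherin gene, with 1 point per mouse, PS19 in blue and Adrb1-A187V;PS19 in red, genes ordered by their mean within each subfamily, and mice with 0 counts drawn as triangles at 0.003. Pcdhac2 and Pcdhgc5 stand above the rest of their clusters, and the points of the genotypes overlap in most genes. The means of the Pcdhb genes other than Pcdhb1 run from 1.03 to 5.63 CPM per kb.

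The plot of levels by mouse shows Pcdhac2, Pcdhgc5 and Pcdhgc3 above the alternative genes, with Pcdhac1 and Pcdhgc4 among them. The position of a gene along its cluster was weakly related to its level. Across genes, Spearman's rho between place from the 5′ end and CPM per kb was 0.39 in Pcdha (14 genes), 0.37 in Pcdhb (22) and 0.28 in Pcdhg (21). Without the C-type genes, which come last in both clusters that hold them, it was 0.21 in Pcdha (12 genes) and -0.005 in Pcdhg (18 genes). Neighbouring genes share enhancers, libraries and constant exons, so these are descriptions only.

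The question of whether the Adrb1-A187V mutation changed protocadherin expression on the PS19 background was first asked of the summed levels. The Pcdha sum was 85.2, 98.8, 96.5 and 96.5 CPM in PS19 mice m677, m668, m665 and m659 and 91.8, 95.9, 84.3 and 89.2 in Adrb1-A187V;PS19 mice m671, m661, m660 and m658. The Pcdhb sum was 170.7, 162.1, 175.4 and 181.8 CPM in the PS19 mice and 185.9, 190.0, 175.4 and 183.1 in the Adrb1-A187V;PS19 mice. The Pcdhg sum was 321.3, 341.9, 327.0 and 352.6 CPM against 343.6, 337.4, 336.9 and 356.5. In none of them were the genotypes separate. Pcdhb came closest, with 1 PS19 mouse, m659, inside the range of the Adrb1-A187V;PS19 mice and mouse m660 inside that of PS19. The means were 94.2 ± 6.13 and 90.3 ± 4.85 CPM (SD, n = 4) for Pcdha, 172.5 ± 8.26 and 183.6 ± 6.14 for Pcdhb, and 335.7 ± 14.2 and 343.6 ± 9.12 for Pcdhg, or ratios of 0.958, 1.06 and 1.02. All clustered genes together gave a ratio of 1.02. The other protocadherins had 1100 ± 51.2 and 1089 ± 39.1 CPM, a ratio of 0.990, also with overlap. Sums over chosen members were given no test.

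**Figure D3:**
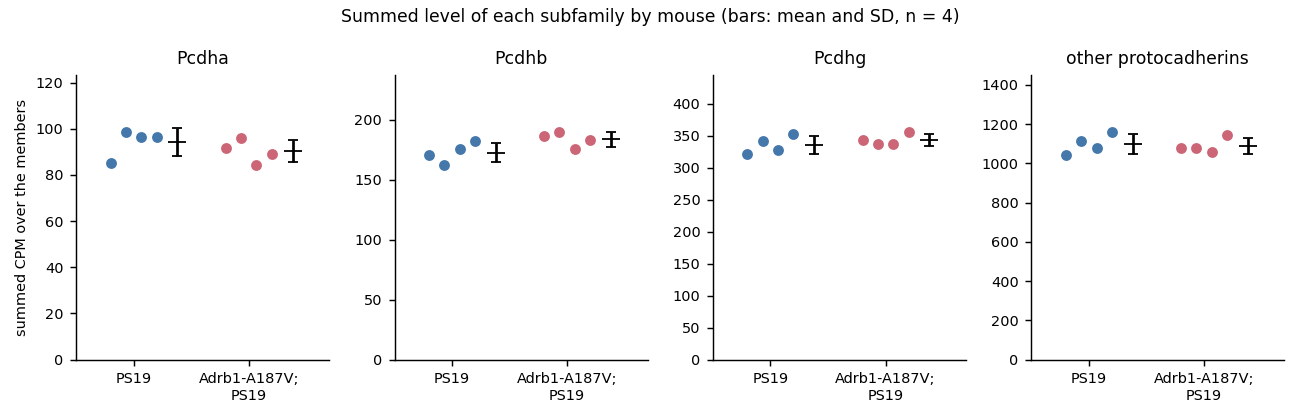
Summed CPM over the members of each subfamily in each mouse, with PS19 mice in blue, Adrb1-A187V;PS19 mice in red, and the mean and SD of each genotype (n = 4) drawn beside the points. The genotypes overlap in all 4 panels, and PS19 mouse m677 is low in Pcdha at 85.2 CPM.

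Gene by gene, 3 of the 64 members tested passed at an unadjusted p under 0.05 in edgeR's quasi-likelihood fit, and all 3 were higher in Adrb1-A187V;PS19 mice. They were Pcdhb14, Pcdha8 and Pcdh11x. The study selected genes at the same unadjusted threshold, with DESeq2. That is 4.69% of the members, where 2.8% of all 17195 genes tested passed (1.42% higher and 1.37% lower). No member, and 0% of all genes, had an adjusted p under 0.05 in edgeR after Benjamini-Hochberg adjustment (smallest value 0.9996). The same 3 members were those whose CPM did not overlap between the genotypes, against 2.02% of all genes. Pcdha8 is among these 3 although it passed the filter on low counts through the Adrb1-A187V;PS19 mice, where it was higher. Its call, direction and lack of overlap are therefore weak support. With at least 10 counts required in every mouse it was not tested, and 2 of 63 members passed. DESeq2's Wald test also called 3 members, the same genes, where 1.65% of the genes it tested passed. With so few calls the count was sensitive to single mice. It was 5 without PS19 mouse m677 or m665 and 2 without Adrb1-A187V;PS19 mouse m671 or m658.

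Pcdhb14 (chromosome 18, 37447656 to 37456350, a gene without introns) had 11.0, 13.3, 11.8 and 12.5 CPM in PS19 mice m677, m668, m665 and m659 and 15.3, 15.1, 14.8 and 16.2 CPM in Adrb1-A187V;PS19 mice m671, m661, m660 and m658. The genotypes did not overlap, with all 4 Adrb1-A187V;PS19 mice on top, and the gap between the nearest mice of the genotypes, m668 and m660, was larger than the range within the Adrb1-A187V;PS19 mice. The mean rose from 12.1 ± 0.969 to 15.4 ± 0.588 CPM (SD, n = 4), a log2 fold change of 0.34 ± 0.09 (SE) with an unadjusted edgeR p of 0.00266. The unadjusted p stayed between 0.00211 and 0.00972 when each mouse was left out in turn. All of its exonic bases were unshared. Its neighbour Pcdhb13 had 5.39, 7.32, 5.43 and 7.11 CPM in the PS19 mice and 8.58, 8.00, 7.00 and 7.58 in the Adrb1-A187V;PS19 mice. These overlapped, and its log2 fold change of 0.31 had an unadjusted edgeR p of 0.0531. Pcdhb13 was singled out after its values were seen.

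Pcdha8 (chromosome 18, 36992371 to 37187657, with the shared constant exons at its end) was the lowest Pcdha gene that passed the filter. It was counted 8, 8, 21 and 13 times in PS19 mice m677, m668, m665 and m659 and 19, 31, 28 and 25 times in Adrb1-A187V;PS19 mice m671, m661, m660 and m658. The raw counts overlapped, since 21 in m665 came from the deepest library, but the scaled values (0.490 to 0.991 CPM against 1.14 to 1.57 CPM) did not. The log2 fold change was 0.96 ± 0.31 (SE) with an unadjusted edgeR p of 0.00753, and its 95% confidence interval ran from 0.30 to 1.62. The gene passed the filter on low counts through the Adrb1-A187V;PS19 mice, since 2 of the 4 PS19 mice had only 8 counts, so its p is weak support for a difference. It was not tested when at least 10 counts were required in every mouse. At a mean of 19.1 counts, counting error alone gives a coefficient of variation of 0.229, above the 0.198 seen within genotype. The other 11 Pcdha genes tested had log2 fold changes of -0.37 to 0.25, and none passed.

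Pcdh11x (chromosome X, 120290259 to 120910619), a delta protocadherin, had 22.2, 17.0, 23.3 and 23.2 CPM in the PS19 mice and 25.5, 26.1, 24.0 and 25.1 in the Adrb1-A187V;PS19 mice, in the order given above. Mouse m668 stood below the rest, and the highest PS19 mouse (23.3) and the lowest Adrb1-A187V;PS19 mouse (24.0) were close. The log2 fold change was 0.23 ± 0.10 (SE) with an unadjusted edgeR p of 0.0331. Without m668 the log2 fold change was 0.14. The p rose to 0.0971 without m668, 0.0612 without m671, 0.0717 without m661 and 0.0531 without m658, so the call rested on each of these 4 mice. In each of these 3 genes the basal forebrain cholinergic markers moved with the genotype in the same direction, and their part was not tested.

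**Figure D4:**
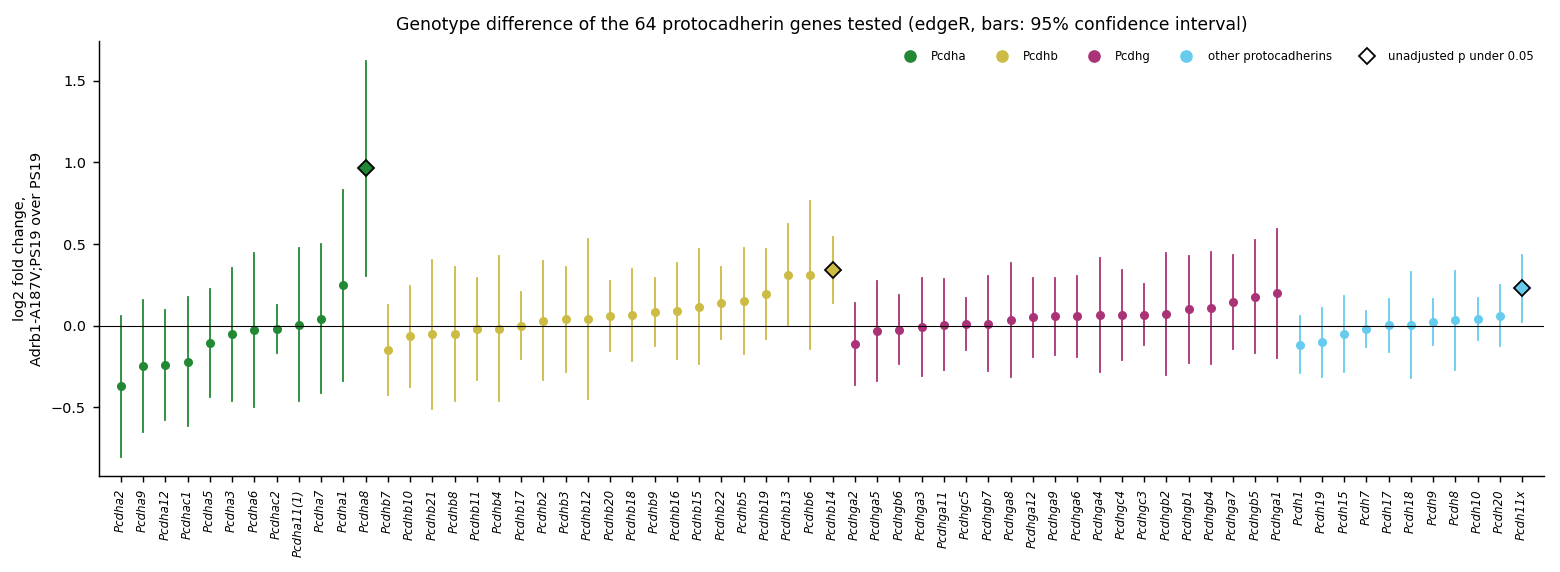
Log2 fold change of Adrb1-A187V;PS19 over PS19 mice for the 64 protocadherin genes tested, with 95% confidence intervals from edgeR, grouped and colored by subfamily. The 3 diamonds are Pcdha8, Pcdhb14 and Pcdh11x, with an unadjusted p under 0.05, and every other interval includes 0.

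The remaining members gave bounds. As the plot of fold changes shows, the 95% confidence interval lay within a log2 fold change of 0.5 in either direction for 50 of the 64 genes, 16 of 21 Pcdhb, 18 of 20 Pcdhg, 11 of 11 others and 5 of 12 Pcdha, whose counts were lowest. The interval was -0.15 to 0.17 for Pcdhgc5, -0.17 to 0.13 for Pcdhac2, -0.13 to 0.09 for Pcdh7 and -0.09 to 0.17 for Pcdh10. The median log2 fold change was -0.04 in Pcdha with 4 of 12 genes above 0, 0.06 in Pcdhb with 14 of 21, 0.06 in Pcdhg with 16 of 20, and 0.01 in the others with 7 of 11. Over all genes tested the median was 0.0005 and 50.2% were above 0. The Pcdha and the other medians changed sign when single mice were left out (Pcdha to 0.03 without m660, the others to -0.02 without m668 or m658 and to -0.01 without m660). The Pcdhb median stayed above 0 but moved to 0.02 without m668 and to 0.10 without m659, and that of Pcdhg to 0.02 without m658 and to 0.10 without m661. Pcdha reached -0.11 without m661. None of the medians kept its size when each mouse was left out, and only those of Pcdhb and Pcdhg kept their sign. The genes of a cluster are neighbours on 1 chromosome, and those of Pcdha and Pcdhg share constant exons. Their signs cannot be taken as independent, and no test was made of these counts.

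Without regard to depth, the mice of a genotype differed more in the clustered genes than in the other protocadherins, but the clustered genes had fewer counts. The median coefficient of variation (CV) of CPM within genotype was 0.187 in Pcdha, 0.124 in Pcdhb, 0.142 in Pcdhg and 0.094 in the others, against 0.106 over all genes tested. The median mean counts were 67.0, 121, 197 and 852, and counting error alone gives median CVs of 0.122, 0.091, 0.071 and 0.034. Set beside all genes of like depth, the gap between the clustered genes and all genes was smaller. The other protocadherins then lay above the median CV of like depth more often than the clustered genes did. Of the 51 clustered genes with a mean of 50 to 5000 counts, 28 lay above the median CV of all genes in their range of depth. The median CV of the clustered genes was above that of all genes in each of the 5 ranges. It was 0.204 against 0.187 for 50 to 100 counts (14 clustered genes), 0.141 against 0.139 for 100 to 200 (20 genes) and 0.108 against 0.0998 for 200 to 400 (14 genes). For 400 to 1000 counts it was 0.0766 against 0.0738 with 2 genes, and for 1000 to 5000 counts 0.0872 against 0.0561 with Pcdhgc5 alone. The other protocadherins were above that median in 10 of 11 cases. For 400 to 1000 counts their median CV was 0.123 in 5 genes, against 0.0738 in 3441 genes of any kind, and the widest was Pcdh8, with a CV of 0.180. It had 33.5, 32.3, 22.7 and 39.9 CPM in the PS19 mice and 33.2, 26.9, 34.4 and 36.6 in the Adrb1-A187V;PS19 mice. Of all 8, m665 was lowest and m659 highest. The values of Pcdh8 were singled out after they were seen.

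**Figure D5:**
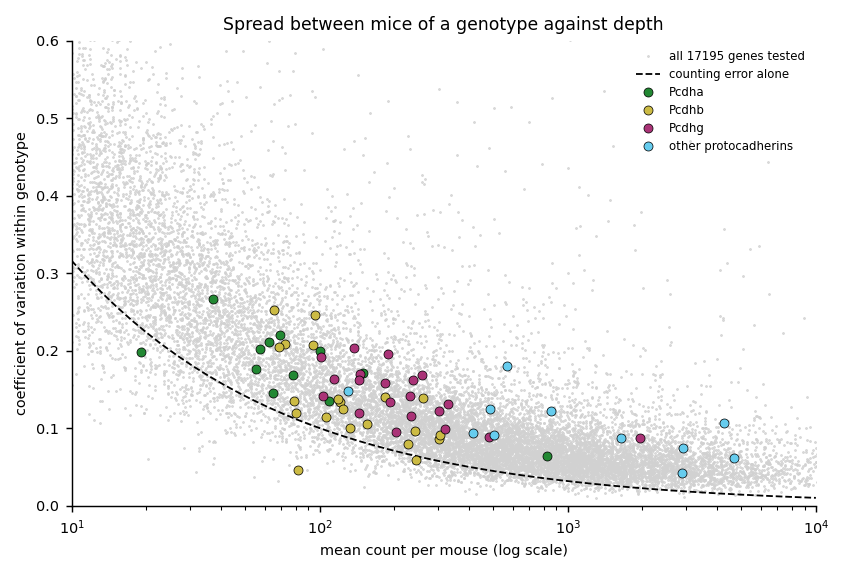
Coefficient of variation of CPM between mice of a genotype against the mean count per mouse (log scale), for the protocadherin genes tested (colored by subfamily), for all genes tested (grey) and for counting error alone (dashed line). The clustered genes lie within the grey cloud at their depth, and 419 of the 17195 genes lie outside the axes.

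Among the members with a mean of at least 50 counts, Pcdhb12, Pcdhb21 and the Pcdha11 row ENSMUSG00000007440 had the widest spread, with CVs of 0.253, 0.246 and 0.221. Pcdhb12 had 5.27, 2.69, 3.30 and 3.43 CPM in the PS19 mice and 4.74, 3.16, 3.25 and 4.02 in the Adrb1-A187V;PS19 mice, so that m677 and m671, 1 of each genotype, were highest. It was the 1 Pcdhb gene with few unshared bases (36.5%), because 1927 of its 3034 bases are overlapped by Gm37446 on the opposite strand. Pcdhb21 had 5.02, 4.69, 5.24 and 6.93 CPM in the PS19 mice and 6.06, 7.09, 3.86 and 4.02 in the Adrb1-A187V;PS19 mice, whose m660 and m658 were lowest. The narrowest were Pcdh7, Pcdhb10 and Pcdhb14, with CVs of 0.0419, 0.0462 and 0.0583. Pcdhb10 lay between 4.19 and 4.89 CPM in all 8 mice, and its CV was below the 0.110 that counting error alone gives at a mean of 82.0 counts. The spread plot shows Pcdhb10, Pcdhb14 and, at a lower mean count, Pcdha8 beneath the dashed line. The median pairwise correlation over the 8 mice, after removing the genotype means, was 0.13 in Pcdha, 0.02 in Pcdhb, 0.02 in Pcdhg and 0.10 in the others.

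The genes that regulate the clusters or work with protocadherins were compared in the same fit. Of 22 regulators of cluster promoter choice and silencing (CTCF, the cohesin subunits, the DNA methyltransferases, Smchd1 and Setdb1 among them), 22 were tested. The log2 fold change was above 0 in 16 and below 0 in 6. At an unadjusted p under 0.05, 1 was called, with higher values in Adrb1-A187V;PS19 mice. It was Rest, a repressor of neuronal genes, with 7.02 ± 0.921 CPM in PS19 and 8.78 ± 1.33 in Adrb1-A187V;PS19 mice (SD, n = 4), a log2 fold change of 0.32 and an unadjusted edgeR p of 0.0497. None of 29 intracellular partners (such as the WAVE complex, the focal adhesion kinases and Axin1) and none of 16 tested surface partners and proteases (such as N-cadherin, Adam10 and gamma-secretase) passed. Of 30 related cadherins and recognition molecules, 18 had a log2 fold change above 0 and 12 below, and 1 was called, with higher values. It was Dchs2, a large cadherin of the Dachsous family, with 4.61 ± 1.10 and 6.43 ± 1.77 CPM, a log2 fold change of 0.49 and an unadjusted edgeR p of 0.0481. The values of both genes overlapped between the genotypes, and neither passed after adjustment. The medians of the 4 lists were 0.04, 0.004, -0.02 and 0.005. In all, 2 of 97 genes passed, where 2.8% of all genes did. This count was 0 without m659 or m671, 1 without m677, m660 or m658, and 5 without m668 or m665. The share of all genes called in those fits was not determined.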

How the data were processed

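Cortical RNA of 8 mice was sequenced by the authors as paired-end reads. Per the labels, reads were aligned to the mouse genome with HISAT2 2.0.5 and counted with featureCounts 1.5.0-p3, and the submitters' notes also name DESeq2 1.20.0. The authors deposited raw counts per Ensembl gene without normalization, with a column of gene lengths in bases, which equal the exon unions of GENCODE M21 in 98.0% of matched genes. Strand and multiple-mapping settings are not given in the sources used here. In R 4.3.3, genes were kept by filterByExpr, normalized by TMM, and tested for genotype in the quasi-likelihood framework of edgeR 4.0.16 (glmQLFTest, 2-sided, without covariates, Benjamini-Hochberg adjustment over 17195 genes). The standard error is the log2 fold change divided by the square root of F. The script was tested on simulated counts. Between 14653222 and 21223754 counts per mouse left the Pcdha genes least precise. Intervals cover the spread between these mice, which the labels present as separate animals.

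The members, the 4 lists of related genes, the 13 marker lists and the alternatives were chosen with earlier results of these data known. Genes were named by a rule: every C-type gene, the 3 highest and the lowest per kb in each group (Pcdha, Pcdhb, Pcdhga, Pcdhgb and others), every member with an unadjusted p under 0.05 or without overlap, the 3 largest and 3 smallest CVs at a mean of at least 50 counts, and called genes of the lists. Pcdh17, Pcdh8, Pcdhb13 and Pcdhga11 were named beyond it. Alternatives were DESeq2 1.42.0, limma-voom (limma 3.58.1), DESeq2 size factors, other count filters, protein-coding genes alone, unscaled totals, geometric means and each mouse left out. Pcdhgb8, listed as a polymorphic pseudogene, was left out. No sequences were printed.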

Additional observations from a re-analysis of the deposited data

Results flagged for a closer look

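Among 64 groups of 4 mice (the sums and the named genes in each genotype), 2 had a mouse farther from the rest than Dixon's critical value of 0.829 for 4 samples, and chance flags about 1 in 20. The summed Pcdha level of PS19 mouse m677 was 85.2 CPM, below 96.5, 96.5 and 98.8 CPM in the other PS19 mice, a gap of 0.831 of the range. Without m677 the ratio of the Pcdha sums went from 0.958 to 0.929. Pcdhb9 in Adrb1-A187V;PS19 mouse m658 was 15.9 CPM, below 18.1, 18.3 and 18.5 CPM in the others, a gap of 0.847 of the range.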

How the results depend on the processing

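Under the alternatives that keep all 8 mice, the number of members with an unadjusted p under 0.05 lay between 2 and 4, and Pcdhb14 and Pcdh11x were called in each. With at least 10 counts in every mouse, clustered genes gave 1 call, since Pcdha8 was not tested. Of the related genes, 1 was called by DESeq2 and 0 by limma-voom. When each mouse was left out, the calls ranged from 2 to 5 over all members, from 2 to 4 in clustered genes and from 0 to 2 in the others, and related genes from 0 to 5. Except for the main fit and DESeq2, the share of all genes called was not determined, so these counts have none beside them. The median log2 fold changes ranged from -0.11 to 0.03 in Pcdha, 0.02 to 0.10 in Pcdhb, 0.02 to 0.10 in Pcdhg and -0.02 to 0.04 in the others without 1 mouse, each a move of over 1.5 times. These medians, the sums and the CVs moved by less than 1 SD (between mice for medians and sums, between genes for CVs). Leaving out 1 mouse of 4 can hardly move a median or sum by that much. A spread between genes is no measure of such a move in a CV. No conclusion on stability is drawn from this limit. Pcdhb14 stayed called without any 1 mouse. No paired analysis was possible because neither number nor litter ties mice of the 2 genotypes together in the labels. A replicate block was therefore not fitted. Of the 28 named members tested, 15, none of them called with all mice, changed sign when single mice were left out. Their log2 fold changes ranged from -0.068 to 0.018 in Pcdhac2, -0.022 to 0.17 in Pcdhgc4, -0.040 to 0.059 in Pcdhgc5, -0.044 to 0.070 in Pcdhb17, -0.15 to 0.081 in Pcdhga3, -0.032 to 0.14 in Pcdhga6, -0.088 to 0.17 in Pcdhgb2, -0.042 to 0.11 in Pcdhgb7 and -0.087 to 0.041 in Pcdhgb6. They ranged from -0.0023 to 0.078 in Pcdh10, -0.033 to 0.057 in Pcdh9, -0.042 to 0.017 in Pcdh7, -0.15 to 0.16 in Pcdha11 (ENSMUSG00000007440), -0.24 to 0.077 in Pcdhb21 and -0.084 to 0.26 in Pcdhb12. Pcdhb17, at -0.00028 with all mice, was 0.0099 with limma-voom, 0.00047 without the filter, 0.00056 with at least 10 counts and 0.00029 with protein-coding genes alone. Per kb of unshared bases, 18 of 25 levels of named clustered genes moved by more than their SD. This follows from the annotation, since the same CPM was divided by a shorter length, and is no test of the levels. Depth limits the Pcdha genes most.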
